A study of Mus musculus with 70 samples.

Results

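The genes described here encode receptors for the neurotransmitters GABA, glycine, glutamate and acetylcholine, as measured by RNA-seq in the pituitary gland of hypothyroid and hyperthyroid male mice. The rule reads symbols and no values, and takes every gene whose symbol carries the prefix of a GABA-A, GABA-B, glycine, AMPA, kainate, delta, NMDA, metabotropic glutamate, nicotinic or muscarinic receptor subunit. The rule found 74 of the 22835 genes in the table. One of them carries a matching prefix but encodes a protein that is not a receptor, which leaves 73 receptor genes. Each gene was represented by its transcript with the highest mean level.

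GABA-A, glycine and nicotinic receptors are pentamers of related subunits around an ion channel, and AMPA, kainate and NMDA receptors are tetramers, so that the subunits a cell expresses set the properties of the channel. GABA-B, metabotropic glutamate and muscarinic receptors instead signal through G proteins. Endocrine cells of the anterior pituitary are electrically excitable, and GABA, glutamate and acetylcholine are all known to modulate hormone secretion from them.

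Wild-type mice and *Thrb*-/- mice, labelled *Thrb*-KO and homozygous for a null allele of the thyroid hormone receptor gene *Thrb*, were both on the C57BL/6J strain. All were adult males made hypothyroid through their drinking water, which held methimazole (MMI) at 0.05% and KClO4 at 1%, and the hyperthyroid groups had T3 at 0.5 μg/ml added to it for the final week. Each library came from a pool of 3 pituitaries, with 4 libraries in each wild-type group and 5 in each *Thrb*-KO group, 18 in all. TRβ binding was mapped in untreated pituitary and cerebral cortex of male mice that carry a tagged receptor (TRβ-HAB) and the biotin ligase BirA that labels it, against controls titled BirA, and a further list gave pituitary chromatin regions whose accessibility by ATAC-seq differed between hypothyroid and hyperthyroid mice, in nuclei marked through a Cre driven by the b2 promoter of *Thrb*, which is active in anterior pituitary cells. By the study's methods the controls carried BirA alone, but the genotype label of every untreated control, in both tissues, names the tagged receptor as well, so the control reads given below rest on the titles and the methods.

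Libraries held 21453548 to 55273749 reads, so that 3 reads corresponded to 0.0543 to 0.14 CPM, the reads of a transcript scaled to a common library total. Replicate 3 of hyperthyroid wild type stood apart, with a median correlation of 0.925 to the other libraries of its group against 0.971 for the next lowest. The sample titles name no library sets. Replicates 1 and 2 of every group were taken as one set and replicates 3 to 5 as another. CPM of *Lars2* was 2571 to 3420 in the former and 53.2 to 95.1 in the latter. CPM of *Thrb* itself, counted over its transcript, was 239 to 297 in hypothyroid wild type and 239 to 295 in hypothyroid *Thrb*-KO libraries, and 72.4 to 124 and 228 to 301 in the hyperthyroid groups. The reads therefore give no check of the genotype labels, which are used as given. Pituitary hormone genes were present in all libraries (summed CPM of the list from 65380 to 215600) and 7 of 7 skeletal muscle markers had a mean below 1 CPM. The bulk RNA does not tell fewer cells of a type from less RNA per cell.

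Receptor genes of every family were detected, but at very unequal levels. CPM exceeded 1 in all 18 libraries for 39 members and in at least 4 libraries for 49, while 8 had a mean below 0.1 CPM. All 4 AMPA, all 5 kainate, both GABA-B and both delta genes were above 1 CPM in every library, against 10 of 19 GABA-A, 6 of 16 nicotinic, 4 of 7 NMDA, 3 of 5 muscarinic, 2 of 5 glycine and 1 of 8 metabotropic glutamate genes. To compare genes, mean CPM over all libraries was divided by transcript length in kb.

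On this scale *Grin1*, the obligatory NMDA subunit, was at 21.4, the nicotinic *Chrnb3* at 18.6 and the kainate subunit *Grik5* at 17.1 CPM per kb, each the highest of its family. Next came *Chrnb2* at 15.5, *Chrna6* at 15.3, and *Gria2*, the AMPA subunit that limits calcium entry, at 13.5 CPM per kb. In further families the highest member was *Glrb* with 9.05, *Gabbr1* with 8.96, *Chrm3* with 1.25, *Grm2* with 0.962 and *Grid1* with 0.741 CPM per kb. Among NMDA subunits the level of *Grin1* stood against 0.416 CPM per kb for *Grin2a*, 0.256 for *Grin2c* and 0.0073 for *Grin2b*, the GluN2 subunits that bind glutamate, with *Grin2d* at 0.428. The muscle-type nicotinic genes *Chrnd* and *Chrng* were at 0.0117 and 0.0026 CPM per kb, whereas *Chrnb1* was at 4.82.

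Per-kb means of *Chrnb2* and *Chrna6* were nearly equal over all libraries but far apart within groups, as *Chrna6* ranged from 4.99 in hyperthyroid wild type to 33.1 CPM per kb in hypothyroid wild type, where it was the highest of all members.

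**Figure D1:**
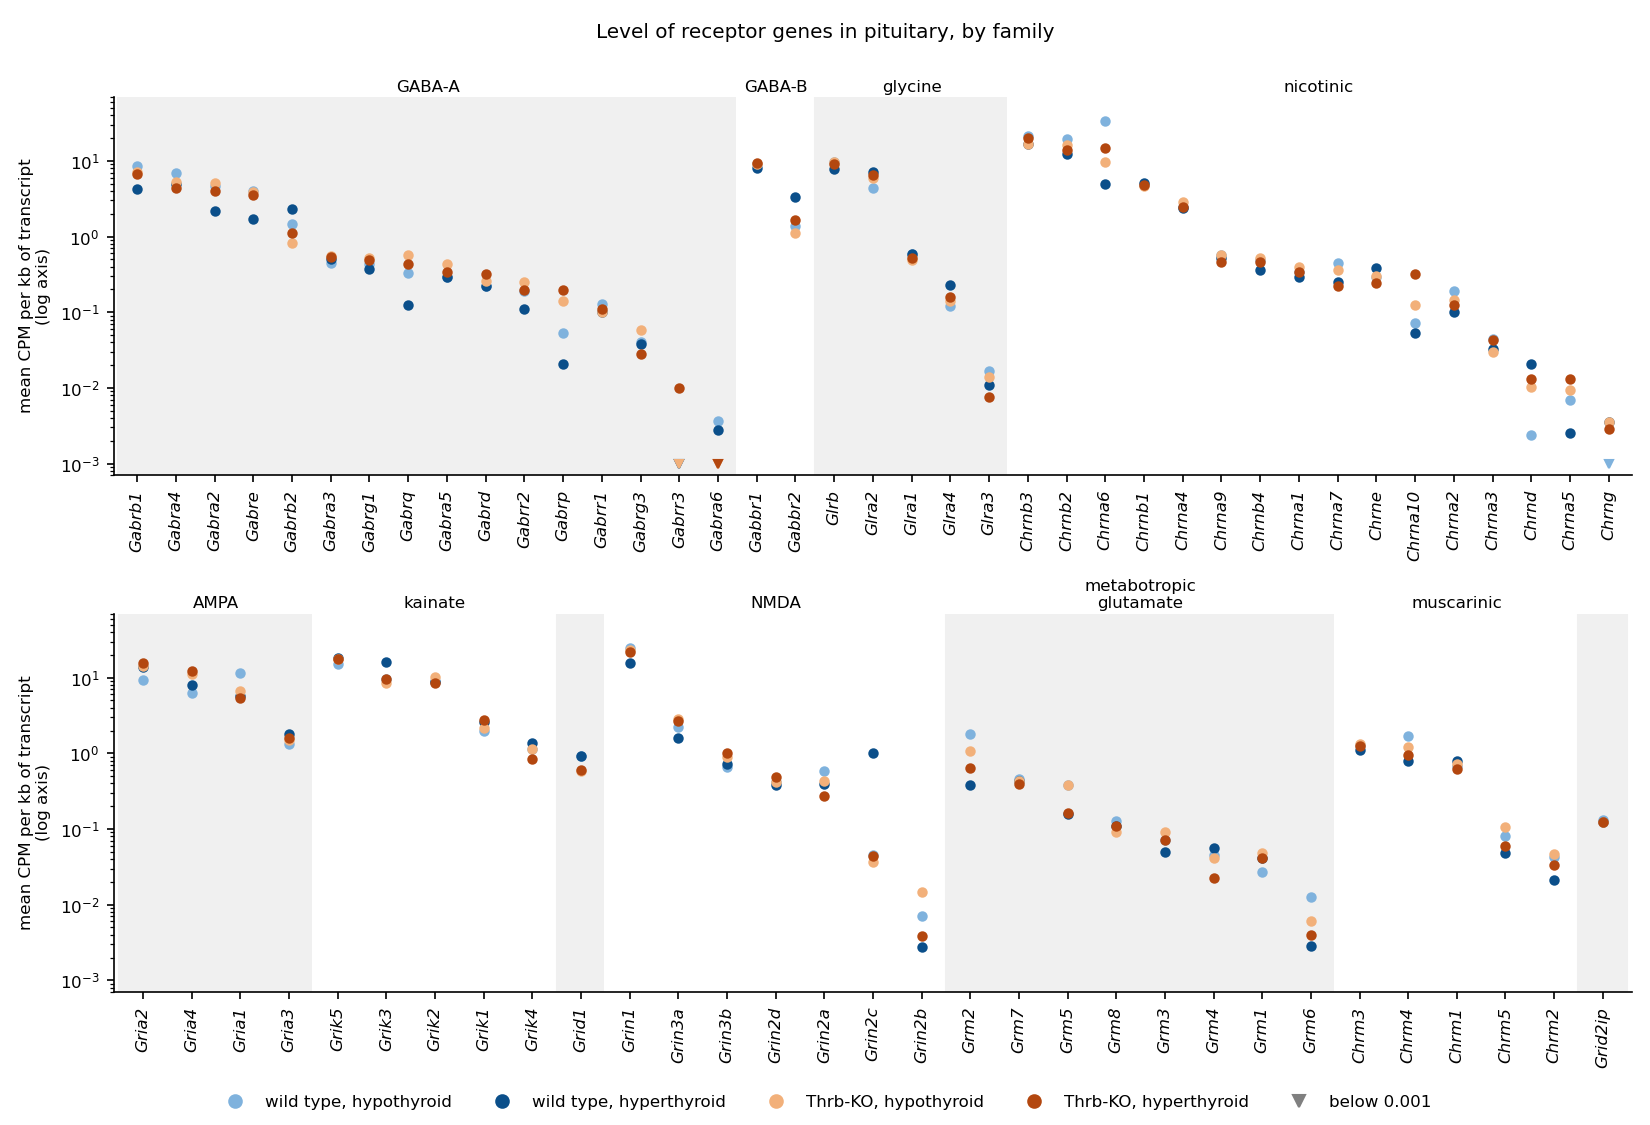
Mean CPM per kb of transcript (log axis) of 70 of the genes in each of the 4 groups, by family and in decreasing order within a family; triangles mark means below 0.001. Most genes show 4 nearly coincident points, while *Chrna6* spans 4.99 to 33.1 CPM per kb and *Grin2c* 0.0369 to 1.01 CPM per kb.

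T3 changed receptor genes in both directions in wild type, and members of 9 of the 10 receptor families were among those called. Of the 39 members tested 14 were called (35.9%, against 9.46% of all genes), of which 4 rose (10.3%, against 3.87% of all 13145 genes tested) and 10 fell (25.6%, against 5.59% of all genes), by limma on log2(CPM + 1) with both an adjusted p under 0.05 and a 1.5-fold limit. Left out in turn, replicates 3 and 4 of hypothyroid and replicate 2 of hyperthyroid wild type each left 2 that rose, with 10, 10 and 12 that fell, and without replicate 3 of hyperthyroid wild type 6 rose and 8 fell. Over all genes these fits had 463, 459, 477 and 650 that rose and 740, 717, 784 and 684 that fell. With every library 509 rose and 735 fell. Fold changes on the log2(CPM + 1) scale are smaller than ratios of mean CPM for genes of low level. The median log2 change of the 39 was -0.07 against -0.04 for all genes, while the median absolute change was 0.38 against 0.16. Hypothyroid and hyperthyroid libraries did not overlap for 13 of the 39 members (33.3%), against 17.4% of all genes.

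The largest decrease was that of *Chrna6*, which encodes the α6 subunit of neuronal nicotinic receptors. Its CPM in hypothyroid wild type was 68.0, 65.4, 126 and 126 in replicates 1 to 4, and in hyperthyroid wild type it was 18.9, 13.9, 12.6 and 12.6. Every hypothyroid library lay far above every hyperthyroid one, and within hypothyroid wild type replicates 1 and 2 lay well below replicates 3 and 4. The change was -2.60 on the log2 scale (SE 0.26, limma adjusted p = 8.60e-07), a 6.64-fold lower mean CPM. It was -1.97 with replicates 1 and 2 alone and -3.22 with the others. *Chrnb2*, the β2 subunit that pairs with α subunits in neuronal receptors, fell from 105 ± 5.08 to 65.6 ± 4.92 CPM (SD, n = 4 each), with no overlap (log2 change -0.68, SE 0.07, limma adjusted p = 8.62e-07). With TMM scaling, at -0.58, and with replicates 1 and 2 alone, at -0.58, the change was under 1.5-fold. *Chrnb3*, the nicotinic gene next to *Chrna6*, did not pass the test (log2 change -0.38, SE 0.15, limma adjusted p = 0.0832), and neither did *Chrna4*, *Chrnb1* or *Chrnb4*, whose log2 changes were -0.04, 0.10 and -0.27.

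Of the muscarinic genes, the Gi-coupled receptor *Chrm4* fell, from 4.05 to 5.44 CPM in hypothyroid wild type to 1.62 to 2.90 CPM in hyperthyroid wild type (log2 change -0.85, SE 0.12, limma adjusted p = 4.83e-05). The Gq-coupled *Chrm1* and *Chrm3* were at log2 changes of 0.18 and -0.14 and were not called.

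The GABA-A subunits divided, with 4 of the 10 tested falling and 1 rising. *Gabre*, the ε subunit, had CPM of 20.9, 20.7, 15.7 and 12.5 in hypothyroid wild type and 8.79, 8.74, 4.01 and 8.09 in hyperthyroid wild type. No library of one group reached the other, and replicate 3 was the lowest of the hyperthyroid libraries by a wide margin. The log2 change was -1.15 (SE 0.19, limma adjusted p = 0.000151), and it was -0.92 without that library.

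*Gabrb1* and *Gabra2*, a β and an α subunit encoded in one cluster, fell by nearly the same amount. *Gabrb1* went from 26.3 ± 3.02 to 13.1 ± 3.56 CPM (SD, n = 4 each; log2 change -0.98, SE 0.15, limma adjusted p = 7.09e-05). *Gabra2* went from 11.2 ± 2.30 to 5.24 ± 1.35 CPM (log2 change -0.97, SE 0.15, limma adjusted p = 0.000121). The groups of libraries did not overlap for either gene. *Gabrb2* had a log2 change of 0.72 with a large error (SE 0.37, limma adjusted p = 0.213), but with the replicate number as a block the SE was 0.19 and it was called higher (adjusted p = 0.0101), and so it was without replicate 3 of hyperthyroid wild type (log2 change 1.03, adjusted p = 0.0490). *Gabra3*, *Gabra4* and *Gabrg1* were not called.

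The strongest increase above the expression limit was that of *Gabbr2*, the subunit of the GABA-B receptor that couples to G proteins. CPM was 10.0, 9.42, 6.29 and 6.02 in hypothyroid and 25.9, 21.2, 13.6 and 16.7 in hyperthyroid wild type, with no overlap. The mean was 2.44-fold higher with T3 (log2 change 1.18, SE 0.19, limma adjusted p = 0.000131), and the change was 1.19 and 1.17 in the library sets taken separately. Its partner *Gabbr1*, which binds GABA, was at 48.1 ± 3.71 and 42.6 ± 4.30 CPM (SD, n = 4 each) and was not called (log2 change -0.17, SE 0.10, limma adjusted p = 0.260).

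Among glycine receptor genes, *Glra2*, an α subunit, was called higher with CPM of 16.4, 16.8, 10.6 and 11.3 in hypothyroid and 24.4, 29.4, 13.1 and 21.6 in hyperthyroid wild type (log2 change 0.62, SE 0.19, limma adjusted p = 0.0282). The groups overlapped, and the call was lost in 6 of 28 alternatives, 5 of which left out a single wild-type library. The β subunit *Glrb* was lower in every hyperthyroid library but changed by less than 1.5-fold (log2 change -0.34, SE 0.11, limma adjusted p = 0.0306).

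Glutamate receptor genes likewise moved both ways. *Gria1*, an AMPA subunit, had CPM of 70.5, 71.5, 59.3 and 54.9 in hypothyroid and 31.8, 43.2, 24.2 and 27.8 in hyperthyroid wild type, so that all hyperthyroid libraries lay below all hypothyroid ones. It fell by 1.01 on the log2 scale (SE 0.14, limma adjusted p = 2.73e-05). *Gria2* was at 64.5 ± 7.21 and 96.9 ± 22.6 CPM (SD, n = 4 each), a log2 change of 0.56 just below 1.5-fold (SE 0.13, limma adjusted p = 0.00574). It was called higher with TMM scaling (0.66), by edgeR (0.63) and DESeq2 (0.64) on the reads, and without replicate 3 of hyperthyroid wild type (0.70). *Gria3* and *Gria4* were not called, with log2 changes of 0.38 each.

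The kainate subunit *Grik3* rose, with CPM of 106.5, 109, 67.5 and 59.4 in hypothyroid and 176, 165, 114 and 128 in hyperthyroid wild type. Every hyperthyroid library was above every hypothyroid one, although replicate 3 of the former lay close to replicate 2 of the latter. The log2 change was 0.79 (SE 0.18, limma adjusted p = 0.00319). None of *Grik1*, *Grik2*, *Grik4* and *Grik5* was called, their log2 changes lying between -0.06 and 0.34, and the delta gene *Grid1* had a change of 0.00.

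The NMDA subunit *Grin1* fell from 104 ± 5.71 to 65.9 ± 11.1 CPM (SD, n = 4 each), with no overlap (log2 change -0.67, SE 0.10, limma adjusted p = 0.000114). Without replicate 3 of hyperthyroid wild type the change was -0.56, under 1.5-fold, and the call was also lost with TMM scaling. *Grin3a*, *Grin3b* and *Grin2d* were not called.

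Of the metabotropic glutamate genes only *Grm2*, a Gi-coupled receptor, passed the expression limit, and it fell. CPM was 6.79, 5.22, 5.03 and 6.78 in hypothyroid and between 1.04 and 1.60 in hyperthyroid wild type, a 4.75-fold lower mean with no overlap. The log2 change was -1.62 (SE 0.15, limma adjusted p = 1.79e-07) and was called in all 28 alternatives.

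Members below 1 CPM in some library were tested in a wider model of 14472 genes with CPM above 1 in at least 4 libraries. *Grin2c*, a GluN2 subunit, entered it only because of the group in which it was high, and so had to differ: its values are given with no test. Its CPM was 0.285, 0.262, 0.161 and 0.181 in hypothyroid wild type, which is 5 to 10 reads a library, and 4.90, 5.11, 2.72 and 6.99 in hyperthyroid wild type, which is 67 to 267 reads. All 10 *Thrb*-KO libraries were between 0.0986 and 0.310 CPM. The hyperthyroid wild-type libraries thus stood apart from the other 14, with a mean 22.2-fold above hypothyroid wild type.

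*Grm5*, a Gq-coupled metabotropic glutamate receptor, and *Gabrq*, the θ subunit of GABA-A receptors, were called lower in the same model (6.14% of all genes were). *Grm5* was at 1.77 to 3.64 CPM in hypothyroid and 0.487 to 1.68 CPM in hyperthyroid wild type (log2 change -0.79, SE 0.20, limma adjusted p = 0.00871). *Gabrq* was at 1.37 to 1.89 and 0.527 to 0.785 CPM (log2 change -0.70, SE 0.15, limma adjusted p = 0.00221). Neither gene overlapped between the groups.

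**Figure D2:**
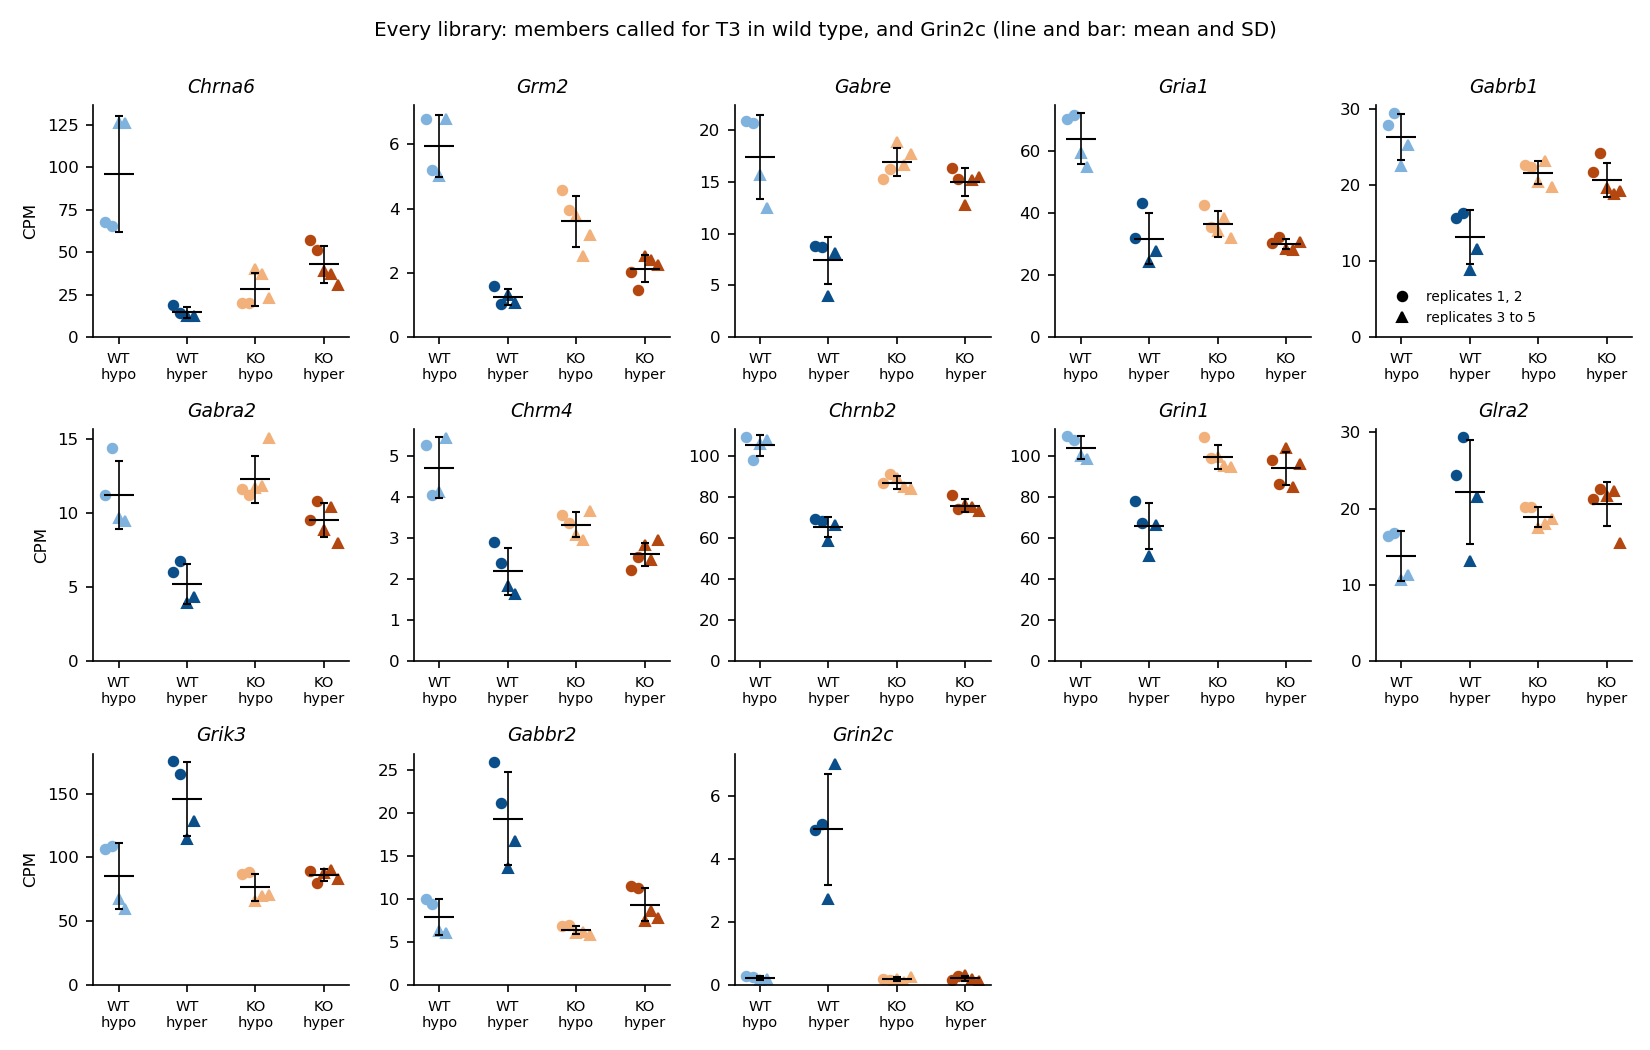
CPM in every library of 12 of the members called for T3 in wild type and of *Grin2c*; circles are replicates 1 and 2, triangles replicates 3 to 5, and the line and bar give the mean and SD of a group (n = 4 in wild type, n = 5 in *Thrb*-KO). The hyperthyroid wild-type points of *Chrna6* lie between 12.6 and 18.9 CPM, under all others, and those of *Grin2c* between 2.72 and 6.99 CPM, above all others.

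Some neuronal marker genes changed in the same contrast, in both directions. The summed CPM of 10 such genes was 575.7 to 696.3 in hypothyroid and 221.4 to 322.8 in hyperthyroid wild type, mostly through *Syt1*, a synaptic vesicle protein that endocrine cells also use, at 493 and 159 CPM. Of the 9 tested, *Syt1*, *Nefm*, *Nefh* and *Slc17a6* were called lower and *Slc17a7* higher. Not called were *Nefl*, *Gad2*, *Stmn2* and the neuronal nuclear marker *Rbfox3*, with log2 changes of -0.32, 0.25, 0.13 and 0.17. *Rbfox3* was at 7.62 and 8.74 CPM, and *Gad1* was below 0.4 CPM in each group mean. The part of these cells in the receptor changes was not tested.

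In mice labelled *Thrb*-KO the response of the 39 members was smaller than in wild type. Their median absolute log2 change was 0.15, against 0.38 in wild type and 0.07 for all genes in *Thrb*-KO. Of the 39 members, 0 rose (0.411% of all genes did) and 1 fell (2.56%, against 0.601% of all genes) by limma, while the groups of libraries did not overlap for 9 members (23.1%, against 5.58% of all genes). At an unadjusted limma p under 0.05, for which no share of all genes is given, there were 3 higher and 8 lower. With edgeR 0 members were called higher and 2 lower (67 and 92 of all 13145 genes), and with DESeq2 also 0 and 2 (80 and 98 of all genes).

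*Grm2* was at 3.60 ± 0.782 and 2.13 ± 0.413 CPM in the hypothyroid and hyperthyroid groups (SD, n = 5 each). On the log2(CPM + 1) scale the change of -0.55 was under the fold limit (limma adjusted p = 0.0321), whereas edgeR (-0.75, adjusted p = 0.0291) and DESeq2 (-0.75, adjusted p = 0.00313), on the reads, called it lower. In the wider model *Grm5* fell in *Thrb*-KO as it did in wild type, from 1.61 to 3.42 CPM to 0.886 to 1.45 CPM (log2 change -0.75, SE 0.18, limma adjusted p = 0.0325; 0.767% of all genes fell in that model), and the difference between genotypes was 0.04 (SE 0.27).

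A test of the difference between the responses, the *Thrb*-KO response minus the wild-type response, called 6 of the 39 members by limma (15.4%, against 4.26% of all genes). All 6 had a positive sign (2.48% of all genes) and 0 a negative one (1.78% of all genes). At an unadjusted limma p under 0.05, for which no share of all genes is given, there were 10 positive and 6 negative. With edgeR 5 and 1 were called (306 and 322 of all 13145 genes), and with DESeq2 7 and 2 (348 and 384 of all genes). *Chrna6* differed most. Its CPM was 20.2, 20.0, 40.0, 36.8 and 23.2 in hypothyroid and 57.2, 51.0, 38.7, 37.1 and 30.5 in hyperthyroid *Thrb*-KO libraries. These groups overlapped, and the hyperthyroid libraries of replicates 1, 2 and 5 were above their hypothyroid counterparts while those of replicates 3 and 4 were level with them. The log2 change in *Thrb*-KO was 0.62 (SE 0.24, limma adjusted p = 0.336), and the difference from the wild-type response was 3.22 (SE 0.36, limma adjusted p = 1.45e-05).

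The differences of the other 5 were 1.07 for *Grm2* (limma adjusted p = 0.00206), 0.99 for *Gabre* (0.0222), 0.91 for *Gabrb1* (0.00761), 0.74 for *Gria1* (0.0222) and 0.59 for *Chrm4* (0.0439). In *Thrb*-KO libraries *Gabre* was at 16.9 ± 1.36 and 15.0 ± 1.34 CPM and *Gabrb1* at 21.7 ± 1.49 and 20.7 ± 2.25 CPM in the hypothyroid and hyperthyroid groups (SD, n = 5 each). *Chrm4* passed the 1.5-fold limit only narrowly and kept its call in 12 of 28 alternatives. The differences of *Gabre* and *Gria1* were not called without replicate 1 or without replicate 2 of hypothyroid wild type. *Chrnb2* and *Grin1* had adjusted p-values of 0.00351 and 0.0173 with differences of 0.48 and 0.58, below 1.5-fold.

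Members that rose in wild type had negative differences that did not pass. They were -0.71 for *Gabbr2* (SE 0.25, limma adjusted p = 0.124), -0.61 for *Grik3* (SE 0.24, 0.187) and -0.51 for *Glra2* (SE 0.26, 0.386). With the replicate number as a block the count of members called was 11 instead of 6, with 8 positive and 3 negative. Over all genes the block gave 419 positive and 334 negative, against 326 and 234 without it. The block added *Gabra2* (0.64, adjusted p = 0.0306) and *Chrnb3* (0.63, 0.0266) to the positive and, among others, *Gabbr2* (adjusted p = 0.00270) and *Grik3* (0.0303) to the negative differences. Without replicate 3 of hyperthyroid wild type 10 members were called, 5 of each sign, and over all genes 325 were positive and 373 negative. With CPM scaled by TMM 5 members were positive and 1 negative, and over all genes 252 and 324. The *Thrb*-KO means of *Grin2c* were 0.181 and 0.216 CPM.

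**Figure D3:**
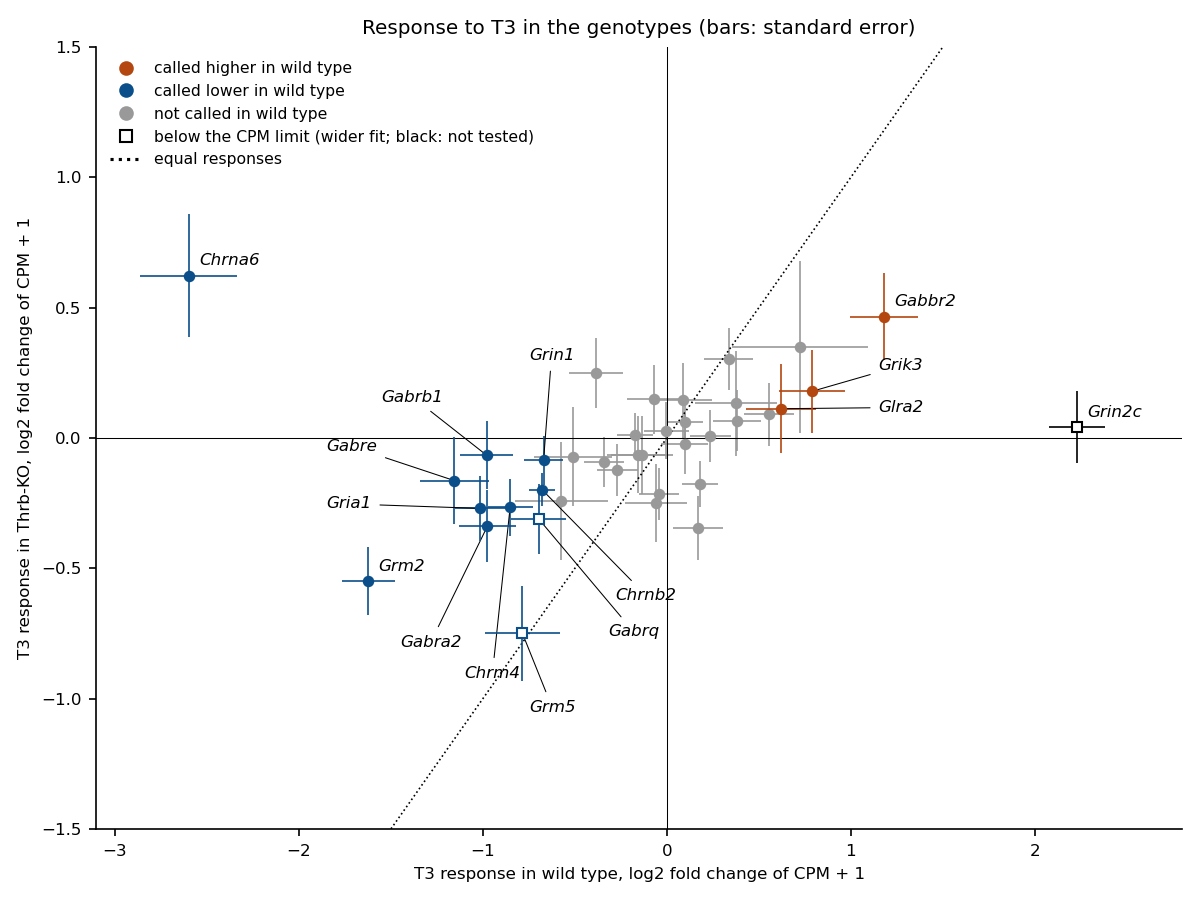
T3 response (log2 fold change of CPM + 1, hyperthyroid against hypothyroid) in wild type on the x axis and in *Thrb*-KO on the y axis for 35 of the members tested and for *Grin2c*, *Grm5* and *Gabrq* from the wider model; bars are standard errors and the dotted line marks equal responses. *Grin2c*, in black, was not tested. *Grm5* lies near the line, *Grin2c* lies near 0 in *Thrb*-KO, and *Chrna6* is at -2.60 in wild type and 0.62 in *Thrb*-KO.

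The genotypes differed at some receptor genes already in the hypothyroid mice, which were given no T3. In hypothyroid mice 2 members were higher in *Thrb*-KO (5.13%, against 1.01% of all genes) and 3 were lower (7.69%, against 2.01%) by limma. Both higher ones were AMPA subunits, and neither was called without replicate 3 of hypothyroid wild type. *Gria4* had CPM of 45.5, 42.4, 22.7 and 24.9 in wild type and 63.0, 75.2, 57.0, 59.5 and 51.8 in *Thrb*-KO, with no overlap (log2 difference 0.89, SE 0.21, limma adjusted p = 0.0140). Its adjusted p was 0.0641 without replicate 3 and 0.0646 without replicate 4 of wild type. The call was kept in 27 of 30 alternatives, and among the 3 that lost it was another transcript of the gene fitted on its own. *Gria2* was at 55.0 to 72.6 CPM in wild type and 88.9 to 107 CPM in *Thrb*-KO (log2 difference 0.64, SE 0.13, limma adjusted p = 0.00396), and the difference was 0.56, under 1.5-fold, without replicate 3 of wild type.

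The third AMPA subunit called, *Gria1*, was instead lower, at 42.5, 35.4, 34.2, 38.6 and 31.9 CPM in hypothyroid *Thrb*-KO against 54.9 to 71.5 CPM in wild type (log2 difference -0.79, SE 0.13, limma adjusted p = 0.000752). *Chrna6* was also lower, 20.0 to 40.0 against 65.4 to 126 CPM (log2 difference -1.73, SE 0.25, limma adjusted p = 0.000193), and so was *Grm2*, 2.53 to 4.58 against 5.03 to 6.79 CPM (log2 difference -0.60, SE 0.14, limma adjusted p = 0.0104). The *Grm2* difference was not called without replicate 1 or 4 of wild type, nor without replicate 4 or 5 of *Thrb*-KO. *Grid1* was at 3.53 ± 0.143 CPM in *Thrb*-KO (SD, n = 5) against 5.49 ± 0.560 CPM in wild type (n = 4) in hypothyroid mice, and at 3.64 ± 0.493 against 5.56 ± 1.33 CPM in hyperthyroid mice. Its log2(CPM + 1) differences of -0.51 (limma adjusted p = 0.00918) and -0.48 (0.00834) were under the fold limit, whereas edgeR on the reads called it lower in both, by -0.67 (adjusted p = 0.00180) and -0.68 (0.000943), and so did DESeq2.

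In hyperthyroid mice 8 members were called (20.5%, against 4.86% of all genes), of which 5 were higher in *Thrb*-KO (12.8%, against 2.54% of all genes) and 3 were lower (7.69%, against 2.32%). Scaled by TMM the split was 4 and 4, and without replicate 3 of hyperthyroid wild type it was 3 and 5, with *Gabrb2* (log2 difference -1.23, adjusted p = 0.0253) and *Grik4* (-0.67, 0.000723) then called lower. Over all genes 334 were higher and 305 lower, which became 239 and 389 with TMM scaling and 264 and 387 without that library. *Chrna6* was now on the other side, at 30.5 to 57.2 CPM in *Thrb*-KO against 12.6 to 18.9 CPM in wild type (log2 difference 1.49, SE 0.25, limma adjusted p = 0.000500). *Gabre* differed by 0.98 (adjusted p = 0.000887), *Gabra2* by 0.77 (0.00129) and *Gabrb1* by 0.65 (0.00365), and none of these overlapped between genotypes. *Grin3a*, an NMDA subunit that lowers calcium entry, was higher by 0.76 (SE 0.20, limma adjusted p = 0.0174), with overlapping libraries at 14.2 to 26.6 against 6.73 to 15.4 CPM. Without replicate 3 of hyperthyroid wild type, its lowest, it was no longer called (adjusted p = 0.0573), and neither was *Gabrb1*, whose difference of 0.49 was then under 1.5-fold. *Gabrb1* was not called with TMM scaling either.

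Among the lower members were *Gabbr2* and *Grik3*, which had risen in wild type. *Gabbr2* was at 7.43 to 11.5 against 13.6 to 25.9 CPM (log2 difference -0.96, SE 0.18, limma adjusted p = 0.00109), and *Grik3* at 79.6 to 90.2 against 114 to 176 CPM (log2 difference -0.73, SE 0.17, limma adjusted p = 0.00628). Neither overlapped between genotypes. These contrasts and those of the T3 response share the wild-type libraries. In the wider model *Gabrq* was higher (2.83% of all genes were) at 1.12 to 2.74 against 0.527 to 0.785 CPM (log2 difference 0.91, SE 0.14, limma adjusted p = 0.000192).

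**Figure D4:**
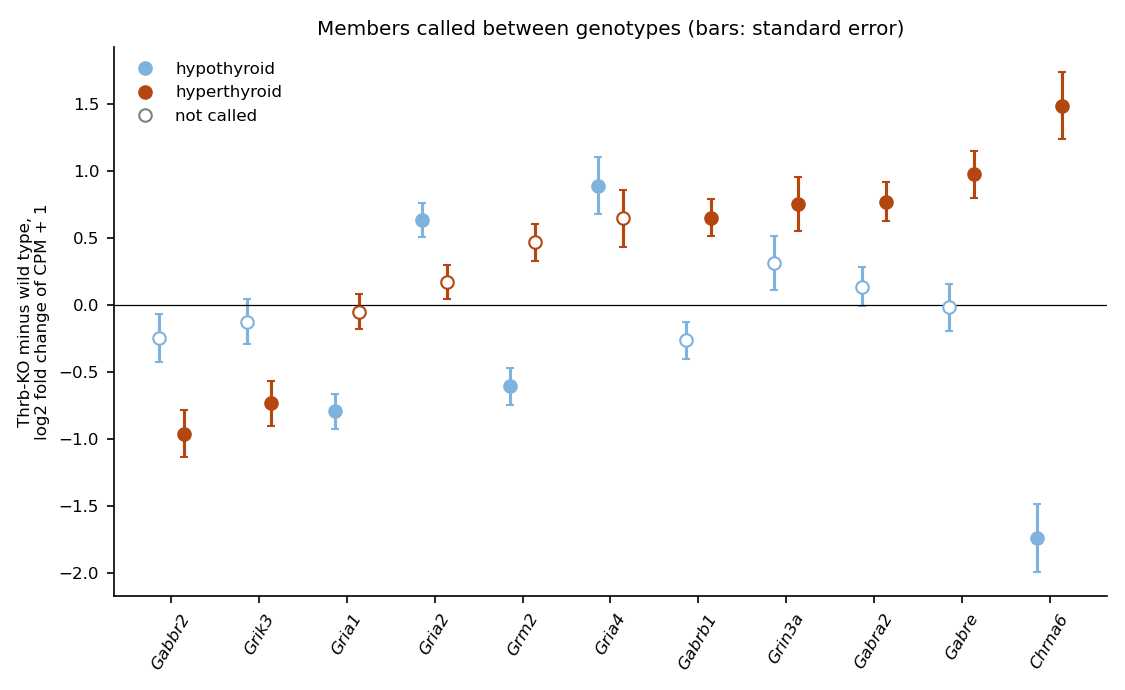
Difference between *Thrb*-KO and wild type (log2 fold change of CPM + 1) in hypothyroid and in hyperthyroid mice for 11 of the members called in either condition; filled points are called, open points are not, and bars are standard errors. *Chrna6* is at -1.73 in hypothyroid and 1.49 in hyperthyroid mice, and *Gabbr2* and *Grik3* have estimates below 0 in both, but are called only in hyperthyroid mice.

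Many receptor genes lie beside one another in the genome, and neighbours did not always change alike. *Chrna6* (chr8:28513686-28524416, mm9) ends 3.485 kb from *Chrnb3* (chr8:28479183-28510201), yet the log2 changes with T3 in wild type were -2.60 and -0.38. In the cluster on chromosome 5 *Gabra2* and *Gabrb1* were called lower, at -0.97 and -0.98, while *Gabrg1*, at -0.16, and *Gabra4*, at -0.57, did not pass the test. On the X chromosome *Gabre* and *Gabrq*, at -1.15 and -0.70, flank *Gabra3*, which was at 0.10. *Gria2* and *Glrb*, 40.8 kb apart on chromosome 3, had changes of 0.56 and -0.34.

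TRβ-HAB peaks lay within 20 kb of 21 of the 74 members in pituitary (28.4%, against 30.5% of all genes) and of 18 in cerebral cortex (24.3%, against 26.0%). For the members above the expression limit these counts were 16 of 39 in pituitary (41.0%, against 41.3% of all genes tested) and 10 of 39 in cortex (25.6%, against 34.9%). The members are long genes, with a median of 58.5 kb and 90.7 kb above the limit, against 25.0 kb for all genes tested, and pituitary peaks numbered 2.03 per Mb at members against 5.38 per Mb at all genes. Regions with T3-regulated accessibility lay within 20 kb of 8 members (10.8%, against 5.96% of all genes), 7 of them among the 39 (17.9%, against 7.80%). Per length the order for the 74 was the other way, 0.614 regions per Mb at members against 0.807 per Mb at all genes. Within 100 kb the shares for the 74 and for all genes were 13.5% and 15.3%. The order did not turn for the 39, with 0.973 regions per Mb against 0.915 at all genes tested, and 23.1% against 18.2% within 100 kb. The list of these regions does not give the direction of the change.

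Of 33 pituitary peaks at members, 24 were intronic and 7 outside the gene. The peak with the most reads was in an intron of *Grik3* (chr4:125269051-125269550, mm9), with 88 reads in tagged and 3 in control libraries, 101356 bases from the gene start. Next were a peak in *Gabbr2* (chr4:46741151-46741600) with 75 and 7 reads, and one in the first part of *Gria2* (chr3:80604251-80604750) with 65 and 4 reads, 2212 bases from the start. A second peak in *Gabbr2* (chr4:46739851-46740500) had 49 and 5 reads, and a broad one in *Gabrb1* (chr5:72361051-72362000) had 41 and 13 reads. The *Gabbr2* peaks lay 263370 and 264570 bases from its gene start, and the *Gabrb1* peak lay 270354 bases from that of *Gabrb1*. The nearest start of a coding gene was that of *Tbc1d2* for the former and *Commd8* for the latter. The median over all 8051 pituitary peaks was 18 and 2 reads, so that the peaks named here stood well above it in tagged reads. The authors' scaled ratio of tagged to control reads had a median of 10.01. It was 24.5 for *Grik3* and 13.6 for *Gria2*, but 8.94 and 8.18 for *Gabbr2* and 2.63 for *Gabrb1*.

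Only 1 pituitary peak at a member covered a transcription start, that of *Gabra4* (chr5:72049401-72049650, 24 and 3 reads). In cortex, where peaks had fewer reads (median 13), *Gabbr2* alone had 11 of the 33 peaks at members, among them the strongest (chr4:46944651-46945400, 45 reads in tagged and 0 in control libraries, which overlaps a pituitary peak) and one over its start (chr4:47004401-47005100, 23 and 5 reads). Another in *Gabbr2* (chr4:46818551-46819100) had 37 and 5 reads, and next came, with 26 tagged reads each, one beyond the end of *Gabbr2* (chr4:46662951-46663550, 6 control reads) and one 144 bases before the start of *Grik3* (chr4:125167051-125167800, 4 control reads). The nearest start of a coding gene to the peak beyond the end of *Gabbr2* was that of *Tbc1d2*. A further *Gabbr2* peak (chr4:46696851-46697450, 18 and 1 reads) covered an annotated start inside the gene.

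**Figure D5:**
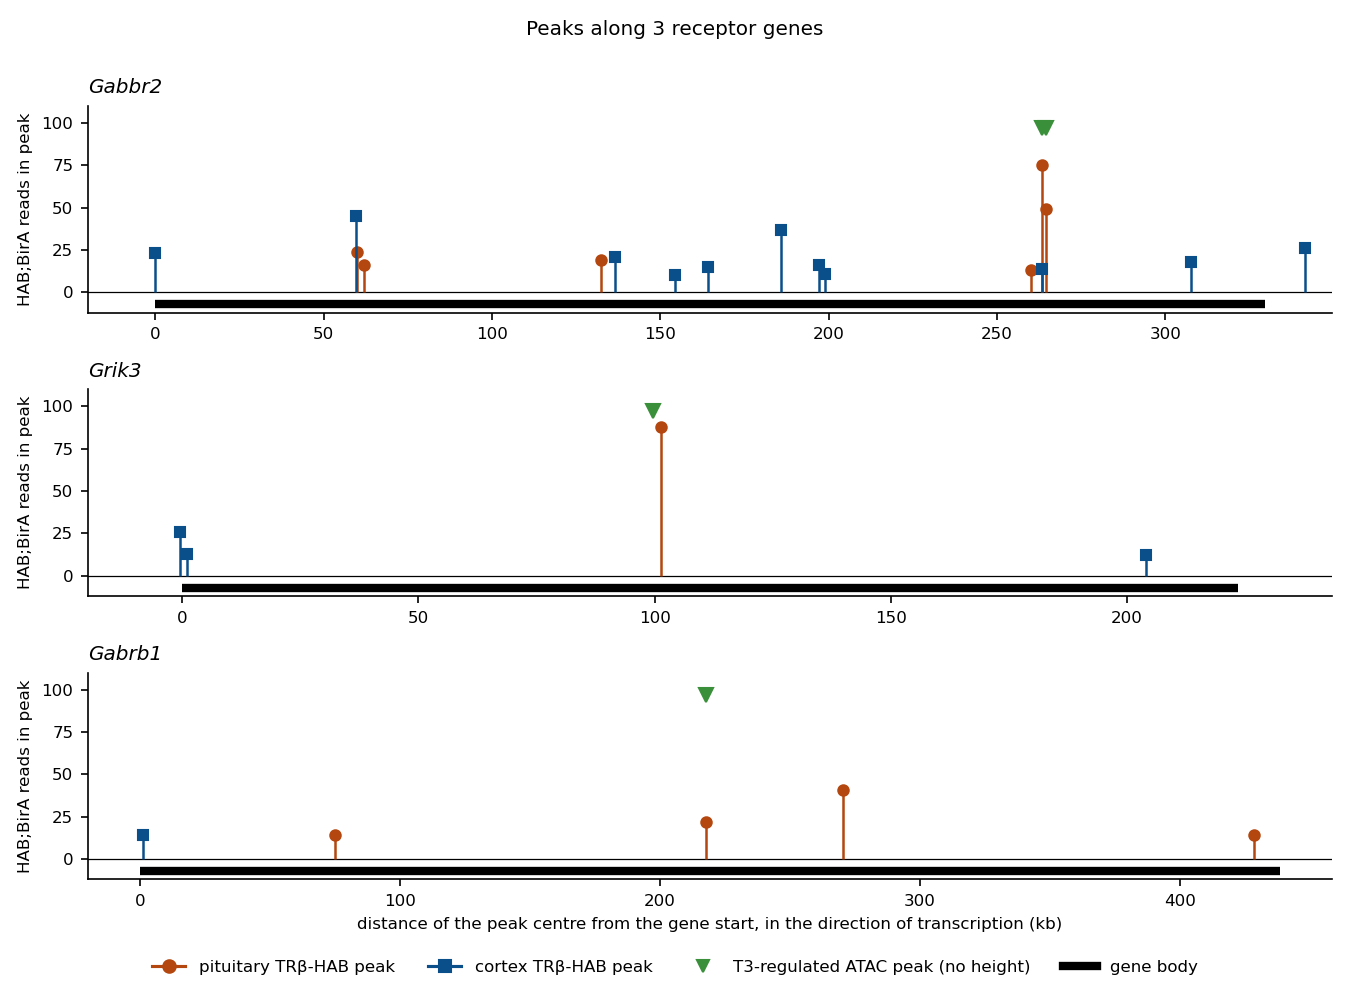
TRβ-HAB peaks along *Gabbr2*, *Grik3* and *Gabrb1*: position of the peak centre from the gene start in kb against the number of reads from tagged mice in the peak, for pituitary (circles) and cortex (squares); triangles mark T3-regulated ATAC regions, which have no height. The pituitary peaks of 75 and 49 reads in *Gabbr2* coincide with both ATAC regions of that gene, and the *Grik3* peak of 88 reads has one nearby.

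Of the 14 members called for T3 in wild type, 2 of the 4 that rose (*Gabbr2* and *Grik3*) and 2 of the 10 that fell (*Gabrb1* and *Chrm4*) had a pituitary peak within 20 kb, as did 12 of the 25 not called. No pituitary peak was within that distance of *Chrna6*, *Grm2*, *Gria1*, *Gabre*, *Gabra2*, *Grin1*, *Chrnb2* or *Glra2*, nor of *Grin2c*, which had a single cortex peak 15233 bases away with 11 reads.

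The 10 regions of T3-regulated accessibility at members included those in or near *Chrm3* (2 regions), *Gabbr2* (2), *Gabrb1*, *Grid1*, *Grik3*, *Grik5* and *Grm7*, and 7 of the 10 overlapped a pituitary TRβ-HAB peak. Those in *Gabbr2* had 75 and 49 tagged reads, those in *Gabrb1* and *Grid1* 22 each, and those at *Chrm3* and *Grm7* 21 each. All 10 regions were searched for the DR4 motif known for thyroid hormone receptors, AGGTCA and a second AGGTCA after 4 other bases, on both strands and with at most 2 mismatches in the 12 positions. It was found in 7 of the 10, against 31.1% of all T3-regulated regions, 20.9% of all pituitary and 9.30% of all cortex peaks. Matches are shown because they let the sites of different receptor genes be set side by side, read 5′ to 3′ on the strand of the match (mm9) with the half-sites in capitals.
*Gabbr2*, chr4:46741344-46741359, 11 of 12 positions: AGGGCAtcccAGGTCA
*Gabrb1*, chr5:72308756-72308771, 11 of 12 positions: AGGTCCtctgAGGTCA
*Grik5*, chr7:25842155-25842170, 11 of 12 positions: AGGTCCacttAGGTCA
*Grid1*, chr14:35907333-35907348, 10 of 12 positions: GGGTCAcctgAGGACA
*Grm7*, chr6:110946454-110946469, 10 of 12 positions: AGGTAActtgAGGACA
*Chrm3*, chr13:9896667-9896682, 10 of 12 positions: AGGACAcagaAGGACA
In the 3 closest matches the second half-site was complete and the mismatch lay in the first. The *Grik5* region, and the *Chrm3* region that held the match, overlapped no pituitary TRβ-HAB peak. In the other *Chrm3* region, which did overlap one, the best match had 9 of 12 positions. Such a match describes the sequence and does not show a bound element. Of the genes listed, *Gabbr2* rose and *Gabrb1* fell with T3 in wild type, and *Grik5*, *Grid1* and *Chrm3* were not called. *Grm7* was below the expression limit.

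The sequences of the peaks that stood out follow, on the plus strand of mm9, for the part of the *Gabbr2* peak that is also a T3-regulated region (chr4:46741151-46741447), the *Gabrb1* peak that overlaps such a region (chr5:72308601-72308900), the end of the strongest *Grik3* peak (chr4:125269251-125269550) and the part of the *Gria2* peak shared with cortex (chr3:80604301-80604550). Capitals mark the half-sites of the best match where it had at most 2 mismatches.
*Gabbr2*: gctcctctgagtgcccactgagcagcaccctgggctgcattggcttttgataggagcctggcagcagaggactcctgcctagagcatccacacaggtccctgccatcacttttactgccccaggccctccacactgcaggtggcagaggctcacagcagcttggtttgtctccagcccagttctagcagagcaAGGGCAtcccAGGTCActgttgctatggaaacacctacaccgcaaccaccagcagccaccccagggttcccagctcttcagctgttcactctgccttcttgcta
*Gabrb1*: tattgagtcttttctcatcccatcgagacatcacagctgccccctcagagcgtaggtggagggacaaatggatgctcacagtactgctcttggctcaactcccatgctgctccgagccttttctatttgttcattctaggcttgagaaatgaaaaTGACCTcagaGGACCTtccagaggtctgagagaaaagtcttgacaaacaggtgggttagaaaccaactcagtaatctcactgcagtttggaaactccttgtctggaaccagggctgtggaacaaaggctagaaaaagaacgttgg
*Grik3*: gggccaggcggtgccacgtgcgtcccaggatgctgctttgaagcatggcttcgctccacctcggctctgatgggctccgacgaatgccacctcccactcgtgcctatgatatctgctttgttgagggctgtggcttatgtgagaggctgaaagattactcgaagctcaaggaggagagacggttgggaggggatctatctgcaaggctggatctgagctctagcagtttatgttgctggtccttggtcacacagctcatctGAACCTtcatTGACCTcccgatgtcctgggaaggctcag
*Gria2*: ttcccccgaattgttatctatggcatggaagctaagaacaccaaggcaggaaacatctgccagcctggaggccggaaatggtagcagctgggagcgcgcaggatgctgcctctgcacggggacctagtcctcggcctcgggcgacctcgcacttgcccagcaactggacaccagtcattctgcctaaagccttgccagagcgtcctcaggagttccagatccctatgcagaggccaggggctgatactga
In *Gabrb1* and *Grik3* the match is on the minus strand, so the half-sites read as their reverse complement. The *Grik3* match had 10 of 12 positions and lay near the end of its peak, and the *Gria2* stretch held none within 2 mismatches (best 9 of 12 positions).

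Genes that make, carry or remove the transmitters and proteins that anchor the receptors were taken as 2 further lists. Of 27 genes of synthesis, transport and breakdown 18 were tested, and with T3 in wild type 2 rose (3.87% of all genes did) and 3 fell (5.59%). *Slc6a11*, a GABA transporter that takes GABA back into cells, rose from 20.5 to 29.1 CPM to 136 to 197 CPM (log2 change 2.64, SE 0.13, limma adjusted p = 5.45e-11) and, less, in *Thrb*-KO from 39.3 to 50.2 CPM to 82.2 to 103 CPM (1.01, SE 0.11, adjusted p = 1.88e-05), with a difference of -1.63 (SE 0.17, adjusted p = 6.86e-06). *Slc17a7*, a vesicular glutamate transporter, rose by 1.11 and *Slc17a6*, its relative, fell by 0.82 on the log2 scale. *Slc17a6* was at 71.1 ± 3.67 CPM in hypothyroid *Thrb*-KO (SD, n = 5) against 17.9 ± 1.34 CPM in wild type (n = 4), a log2 difference of 1.93 (SE 0.09, limma adjusted p = 3.45e-10).

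The enzymes that break down acetylcholine fell with T3, *Ache* from 56.8 ± 4.56 to 31.2 ± 6.73 CPM (log2 change -0.86, limma adjusted p = 0.000147) and *Bche* by 0.95. In *Thrb*-KO *Ache* fell further, from 118 ± 11.4 to 35.9 ± 5.48 CPM (SD, n = 5 each; log2 change -1.70, limma adjusted p = 1.32e-07), and the responses differed by -0.83 (SE 0.19, adjusted p = 0.0101). Between genotypes 4 genes of this list were higher and 1 lower in hypothyroid *Thrb*-KO, against 1.01% and 2.01% of all genes, and 1 higher and 2 lower in hyperthyroid *Thrb*-KO, against 2.54% and 2.32%. *Gad2*, an enzyme that makes GABA, was lower in *Thrb*-KO under both conditions, by 1.16 and 1.36 on the log2 scale, and *Slc12a5*, the chloride exporter of neurons, was higher by 0.72 in hypothyroid *Thrb*-KO.

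Of 46 anchoring and auxiliary proteins 38 were tested, and 2 rose (3.87% of all genes did) and 7 fell (5.59%) with T3 in wild type. *Kctd8*, an auxiliary subunit of GABA-B receptors, rose with *Gabbr2*, from 1.69 to 2.20 CPM to 3.89 to 5.66 CPM (log2 change 0.99, SE 0.11, limma adjusted p = 3.50e-06), and its response in *Thrb*-KO was smaller by 0.83 (SE 0.15, adjusted p = 0.00242). The scaffold *Dlg3* rose by 0.63. Among the genes that fell were *Grip1* (-0.82), which binds AMPA subunits, *Dlg2* (-0.84), the AMPA auxiliary subunits *Cacng5* (-0.70) and *Cnih2* (-0.66), *Shisa7* (-0.64) and the kainate auxiliary subunit *Neto2* (-0.68). Without replicate 3 of hyperthyroid wild type *Neto2* (-0.42, limma adjusted p = 0.0941), *Cnih2* (-0.54) and *Shisa7* (-0.56) were not called. In hypothyroid *Thrb*-KO 3 genes of this list were lower than in wild type (2.01% of all genes were), *Cacng5* by 1.74 and *Cacng2* by 0.95, both AMPA auxiliary subunits, and *Lynx1*, a modulator of nicotinic receptors, by 0.62 on the log2 scale. In hyperthyroid *Thrb*-KO 1 gene of the list was higher and 4 were lower, against 2.54% and 2.32% of all genes. The difference between responses was called positive for 1 gene of the list and negative for 1, against 2.48% and 1.78% of all genes.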

How the data were processed

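RNA-seq used 18 pituitary libraries. The authors aligned reads to mouse RefSeq transcripts (mm9) with BBMap, per the study's methods, and the deposited values are CPM for each transcript before any expression limit. The read count behind each value was recovered from the step between CPM values (100% whole within 0.05 reads in the lowest library). The authors merged ChAP-seq replicates and called peaks with SICER against BirA controls, and the deposited lists hold the count of tagged and of control reads, a fold ratio scaled by the authors, a p-value and the false discovery rate of each peak. Control reads are unscaled. The deposited ATAC list gives the authors' adjusted p-value for hyperthyroid against hypothyroid nuclei; only its positions were used, taken as given since it does not state whether starts count from 0 or 1, whereas SICER windows were shifted to count from 1. Submitters' processing notes name mm9, Bowtie2, STAR, SICER 1.1, MACS2 and edgeR.

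With limma 3.58.1 (eBayes with trend) in R 4.3.3, log2(CPM + 1) was modelled by group over the 18 libraries for genes exceeding 1 CPM in each of them, with Benjamini-Hochberg adjustment over all genes tested and calls at adjusted p under 0.05 and 1.5-fold. The test was tried on simulated data. Members below the limit were fitted in the same model with the limit in at least 4 libraries. Alternatives were a pseudocount of 0.25, other expression limits, TMM scaling, edgeR 4.0.16 and DESeq2 1.42.0 on recovered reads, no fold limit, the replicate number as a block, the library set as a term or alone, every transcript on its own, and leaving out each library. Combinations of the wider limit with other settings were chosen after seeing the data. Deviations from group means of same-numbered libraries correlated in all 25 pairs (Pearson's r 0.13 to 0.815, median 0.529). Libraries of different numbers were not compared, so this does not tell pairing by replicate number from the library sets. The labels do not say that libraries came from separate cohorts, so p-values measure the spread between these pools.

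Genes were placed on mm9 with GENCODE vM1 (74 of 74 members, 98.65% of tested genes); length is that of the longest annotated transcript, which for *Chrm3* and *Chrm5* is coding length alone. Peaks within 20 kb of a gene body were counted, and shares carry counting error only. Members, gene lists, named genes and alternatives were chosen with earlier results of these data known. Named were all members called in any contrast, those below the limit called in the wider model, and the highest per kb of each family. Of peaks, those named overlap a T3-regulated region, cover a start, or are the 5 in pituitary and 3 in cortex with the most tagged reads. Some genes that the rule names are not reported here, though counts include them. Treated ChAP-seq and histone ChIP-seq samples were not analysed here. Figures were drawn with matplotlib 3.10.9.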

Additional observations from a re-analysis of the deposited data

Results flagged for a closer look

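The T3 response differed between genotypes for 8 members above the expression limit, by the limma test of the difference itself (*Thrb*-KO response minus wild-type response, log2). This count is at adjusted p under 0.05 without the fold limit, and no share of all genes is given for it. With the fold limit 6 of the 39 were called (15.4%, against 4.26% of all genes). The differences of the 8 were 3.22 for *Chrna6*, 1.07 for *Grm2*, 0.99 for *Gabre*, 0.91 for *Gabrb1*, 0.74 for *Gria1*, 0.59 for *Chrm4*, 0.58 for *Grin1* and 0.48 for *Chrnb2*, the last 2 below 1.5-fold. *Chrna6* was the only one of these 8 whose estimated change in *Thrb*-KO (0.62, adjusted p = 0.336) had the opposite sign to its change in wild type.

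Among the 80 groups of libraries of the described members, 3 held a library far from the others, where chance alone marks about 1 group in 20. CPM of *Gabra2* was 15.1 in replicate 5 of hypothyroid *Thrb*-KO, against 11.2 to 11.8 in the others. *Gabre* was at 4.01 in replicate 3 of hyperthyroid wild type, against 8.09 to 8.79, and *Glra2* at 15.5 in replicate 5 of hyperthyroid *Thrb*-KO, against 21.2 to 22.5.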

How the results depend on the processing

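The count of members called for T3 in wild type stayed within 1.5 times of 14 under every alternative (12 to 15 without single libraries). In *Thrb*-KO the count of 1 became 2 with a pseudocount of 0.25, the wider limit, edgeR, DESeq2 or no fold limit, 3 with replicates 1 and 2 alone, and 0 with TMM scaling or replicates 3 to 5 alone (0 to 2 without single libraries). For the difference between responses the 6 became 11 with the replicate block or the library set as a term and 10 with replicates 3 to 5 alone, and ranged from 3 (without replicate 1 of hypothyroid wild type) to 10 (without replicate 3 of hyperthyroid wild type). Between genotypes, the 5 in hypothyroid mice became 8 with no fold limit (3 to 5 without single libraries, the lowest without replicate 3 or replicate 4 of hypothyroid wild type), and the 8 in hyperthyroid mice became 14 with no fold limit (8 to 9). Members with a pituitary peak numbered 40 within 100 kb and 11 with a stricter limit at the median false discovery rate, instead of 21, and with a cortex peak 28 and 10, instead of 18; overlap with the gene body gave 14 and 12. Of 612 refits of single called members without a library, 39 lost the call, and of 396 under other alternatives, 24; 0 changed sign. *Grm5* in *Thrb*-KO was lost without an expression limit. Causes were not tested. TMM scaling moved the share of higher calls over all genes from 40.9% to 55.6% for T3 in wild type. The replicate block lost no call of a described member. Depth limits members near the level of 3 reads, 0.0543 to 0.14 CPM.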
